A study of Mus musculus with 12 samples.

Results

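The transcripts examined here encode the receptors for glutamate, the main excitatory transmitter of the hippocampus, together with proteins that bind them at the synapse. The set of 33 genes was taken as a list by family, and each symbol was matched to 1 of the 41091 gene IDs in both count tables. It holds 4 AMPA receptor subunits (Gria1 to Gria4), 5 kainate receptor subunits (Grik1 to Grik5), 6 NMDA receptor subunits (Grin1, Grin2a to Grin2d and Grin3a), the delta subunit Grid1 and 6 metabotropic receptors (Grm2, Grm3, Grm4, Grm5, Grm7 and Grm8). It also holds 5 transmembrane AMPA receptor regulatory proteins (TARPs) and cornichons (Cacng2, Cacng3, Cacng8, Cnih2 and Cnih3), the kainate receptor auxiliary proteins Neto1 and Neto2, and 4 membrane-associated guanylate kinase (MAGUK) scaffolds (Dlg1 to Dlg4). All 33 passed the filter on low counts in every comparison, and the lowest count of any of them in any library was 77, for Grin2d.

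RNA-seq counts came from 12 libraries of acute hippocampal mini-slices, 3 in each of 4 groups, and the mice were wild-type male C57BL/6 animals 2 to 3 months old. The dentate gyrus was trimmed from the slices, which then recovered for 2 hr. In the LTP groups, chemical long-term potentiation was induced with forskolin, an activator of adenylyl cyclase, at 50 uM for 5 min, after which 30 mM KCl and calcium at 10 mM were added to the forskolin up to a total of 10 min. Control slices received 0.2% DMSO over the same 10 min, and tissue was frozen 1 hr or 3 hr after treatment. LTP and control slices carrying the same replicate number at a time point came from the same animal. Several slices were pooled for each library, and the study made libraries only from material in which RT-qPCR showed induction of Arc, so the LTP libraries were preselected for a response. The sources do not say whether the 1 hr and 3 hr libraries came from different animals, and time after treatment cannot be told apart from such a difference.

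AMPA receptors carry most of the fast current at excitatory synapses, and LTP at CA3 to CA1 synapses is expressed largely through their number and properties. NMDA receptors are assembled from the obligatory GluN1 subunit and a pair of GluN2 or GluN3 subunits, and calcium entry through them triggers many forms of LTP. Which GluN2 subunit is present sets the channel's kinetics and its intracellular partners. TARPs and cornichons accompany AMPA receptors through assembly and gating, and MAGUK scaffolds anchor receptors in the postsynaptic density.

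Library totals lay between 37118382 and 50815001 counts, and the SD given below comes from the spread between libraries. The SE comes from the edgeR quasi-likelihood test, which pools that spread over the fitted groups and moderates it across genes. Control replicate 2 at 1 hr, an outlier in the study's clustering, was left out of the tests as the study did, and its values are printed below with the others. Levels are given as CPM, counts scaled to library size with TMM over all 12 libraries. Marker genes of excitatory neurons (Slc17a7, Neurod6, Nrgn and Tbr1) summed to 1352 to 1397 CPM in 1 hr controls and 1212 to 1266 CPM in 3 hr controls. Markers of dentate granule cells, whose layer had been trimmed, were still found, at summed levels of 194 to 231 CPM in 3 hr controls. After LTP at 3 hr they were 298, 180.4 and 183 CPM in replicates 1, 2 and 3, so that replicate 1 stood above the others. Of the 6 listed markers 1, Calb2, was called, lower after LTP at 3 hr (log2 fold change -0.62, adjusted p = 0.0312, edgeR quasi-likelihood test). In bulk tissue, fewer cells of a type and less RNA per cell cannot be told apart.

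Levels of different genes were set side by side per length, as CPM per kb of annotated exon, averaged over the 12 libraries. On this scale Gria1 was the most abundant of the 33, at 230.5 CPM per kb, followed by Cnih2 at 165 and Gria2 at 102. Grm5, the main postsynaptic metabotropic receptor of pyramidal cells, stood at 65.5 CPM per kb, and Grin2b at 49.0. Dlg3 (44.7 CPM per kb), Cacng8 (40.6) and Grin1 (33.1) came next. At the other end were Grin2d, Grm8 and Grm4, at 0.397, 0.802 and 0.906 CPM per kb. The order depends on which exons count towards a gene's length, since long alternative ends lower the level per kb. The reads of Grin1, Grin2d and Grm2 are less certain than most, since 13.5%, 9.66% and 9.60% of their exonic bases overlap a gene on the opposite strand and the sources do not give the strand setting of the counting.

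LTP and control slices were compared at each time point to ask which of these transcripts responded. A gene was called where the adjusted p was under 0.1 and the fold change over 1.2. At 1 hr none of the 33 was called (edgeR quasi-likelihood test, Benjamini-Hochberg), against 0.789% of all genes tested, and DESeq2 and limma-voom also called 0. At an unadjusted p under 0.05 there was 1 member, Cnih3, against 6.71% of all genes. The members' log2 fold changes ran from -0.21 (Cnih3) to 0.42 (Grin2d), with a median of -0.02. When 1 hr LTP replicate 3 was left out, 1 member was called, Grm8, with 1.97% of all genes.

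At 3 hr, 3 of the 33 were called, the NMDA receptor subunits Grin2b and Grin2a and the scaffold Dlg2, and all 3 were higher in LTP slices. Over all genes tested 6.60% were called, 5.07% higher and 1.53% lower. The members' median log2 fold change was 0.12, with 26 of 33 above 0. The median of all genes was -0.0025, so that no more of them lay above 0 than below it. The members differ from all genes in length, with a median exonic length of 6305 bases against 3781 for the 18584 genes in the model of 4 groups. Values beside exonic length are given further below. LTP and control libraries did not overlap for 10 of the 33, a share close to the 27.0% of all genes for which this held. With the animal as a replicate block in edgeR, 5 members were called, with Grik5 (log2 fold change 0.30, adjusted p = 0.0416) and Grin2d (0.50, adjusted p = 0.0922) added to the same 3. The block raised the share called among all genes to 9.49%.

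The number called at 3 hr moved with single libraries, among all genes as among the members. Grin2b was called in every fit that left out 1 library, but it was the only member called without control replicate 1, without control replicate 2 or without LTP replicate 1. In these fits 1.76%, 1.28% and 1.86% of all genes were called. Without LTP replicate 2, 9 members were called, all higher: Grin2d, Grik5, Dlg4, Grin1, Grin2b, Dlg2, Grin2a, Grm4 and Cacng3. Of all genes 12.2% were then called, 9.32% higher. Replicate 2 had the lowest summed level of excitatory neuron markers in the group, 1009 CPM against 1193 and 1519 CPM in replicates 1 and 3. The 3 hr controls had 1212 to 1266 CPM on this list. General neuronal markers (Rbfox3, Snap25, Syt1, Map2 and Tubb3) summed to 5812 to 6026 CPM in 3 hr controls, with 0 of 5 called. In 3 hr LTP replicates 1, 2 and 3 they summed to 5603, 5819 and 6085 CPM, so replicate 2 was not the lowest on this list. The part of tissue makeup in the members' values was not tested.

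**Figure D1:**
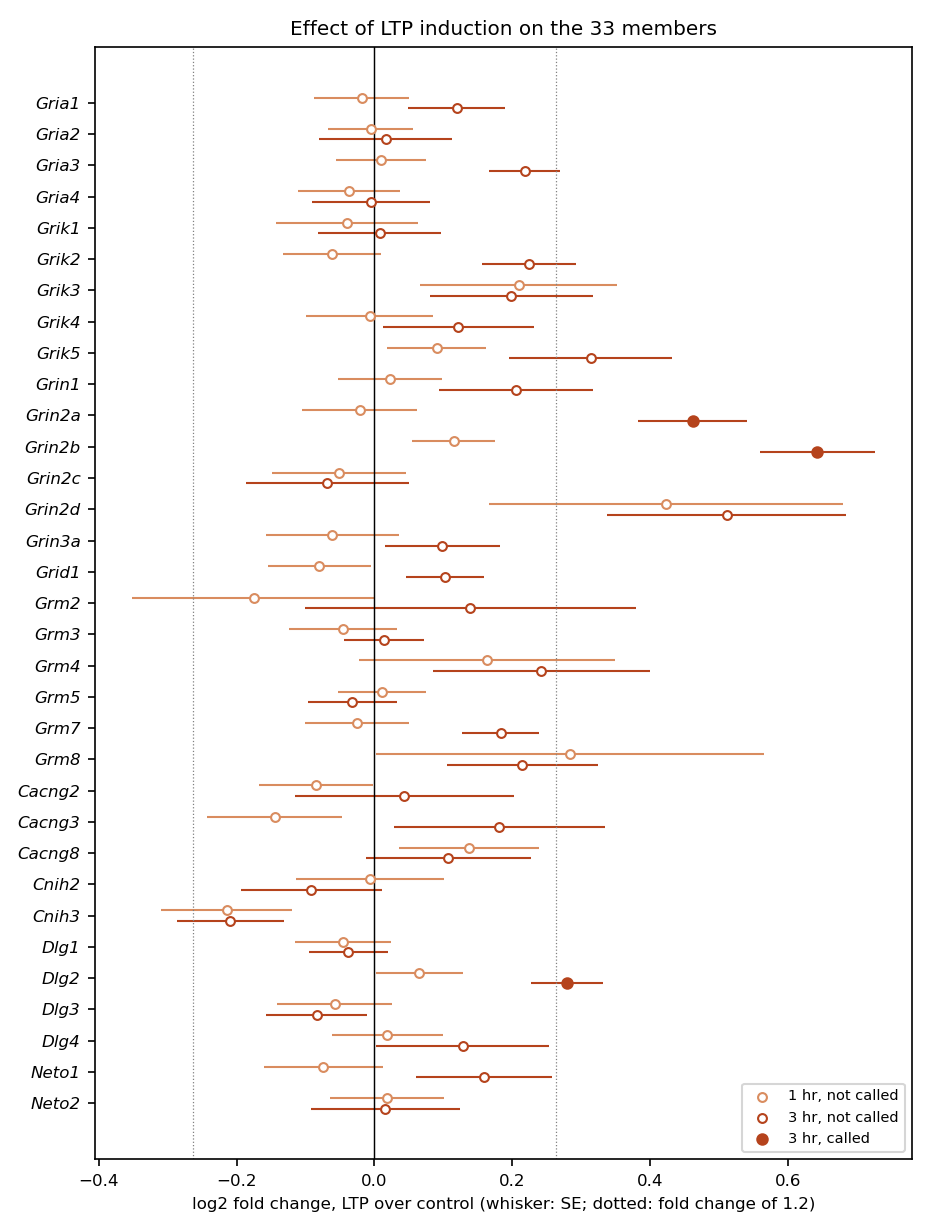
The log2 fold change of LTP over control (x axis) for each of the 33 genes (rows), at 1 hr (light) and 3 hr (dark), with whiskers for the SE, filled points for called genes and dotted lines at a fold change of 1.2. Grin2b and Grin2a at 0.64 and 0.46 and Dlg2 at 0.28 are the filled points, all at 3 hr, and most other 3 hr points lie right of 0.

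Among the NMDA receptor subunits, Grin2b changed most after LTP at 3 hr, in the fit of that time point. It encodes the GluN2B subunit and lies at chr6:135713233-136173511, minus strand (GRCm38). Its level in 3 hr control replicates 1, 2 and 3 was 924, 949 and 992 CPM, and in 3 hr LTP replicates 1496, 1324 and 1611 CPM. Each LTP library was above every control library. The means were 955 ± 34.6 CPM (SD, n = 3) and 1477 ± 145 CPM (SD, n = 3), a fold change of 1.56 (log2 fold change 0.64, SE 0.0835, adjusted p = 0.00633, edgeR quasi-likelihood test, Benjamini-Hochberg). At 1 hr the controls had 1184, 1102 and 1190.3 CPM and the LTP libraries 1296, 1226 and 1306 CPM. The 1 hr groups did not overlap either, but the log2 fold change was only 0.11 (SE 0.0608) and was not called. The 4 group means ran from 3 hr control through 1 hr control and 1 hr LTP to 3 hr LTP, and of neighbours in this order, 1 hr control and 1 hr LTP did not differ past the threshold, and 1 hr LTP was not tested against 3 hr LTP.

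Grin2a, which encodes GluN2A (chr16:9567898-9995560, minus strand), had 265, 262 and 283 CPM in 3 hr controls and 390.2, 329 and 386 CPM in 3 hr LTP libraries. The groups were well separated, with means of 270.0 ± 11.1 CPM (SD, n = 3) and 368 ± 34.3 CPM (SD, n = 3). The increase was 1.38-fold (log2 fold change 0.46, SE 0.0793, adjusted p = 0.0202, edgeR quasi-likelihood test, Benjamini-Hochberg). At 1 hr the values overlapped, with 264, 284 and 291 CPM in controls and 282, 239 and 293 CPM after LTP. Unlike Grin2b, Grin2a had similar levels in the controls of both time points, where the log2 difference was -0.07 (SE 0.0967). The call was lost in 3 of the fits that left out 1 library, without control replicate 1, control replicate 2 or LTP replicate 1, where the log2 fold change was still between 0.42 and 0.45.

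Grin1 encodes the GluN1 subunit that every NMDA receptor requires (chr2:25291181-25319187, minus strand). Its 3 hr control values of 297, 318 and 345 CPM overlapped the LTP values of 365, 308 and 423 CPM. LTP replicate 2 was the low one, and the log2 fold change of 0.21 (SE 0.112) was not called. Without that library it was 0.32 and was called (adjusted p = 0.0421, edgeR quasi-likelihood test, Benjamini-Hochberg). Over all the fits that left out 1 library it ran from 0.08 to 0.32, and no other of them called it. At 1 hr Grin1 had 293, 338 and 286 CPM in controls and 313, 264 and 299.6 CPM in LTP slices, with wholly overlapping groups. Grin2c (GluN2C) had 43.1, 41.8 and 50.6 CPM in 3 hr controls and 45.8, 35.7 and 46.7 CPM after LTP, and its log2 fold change was -0.07 (SE 0.119). At 1 hr Grin2c had 30.8, 41.8 and 33.1 CPM in controls and 31.4, 26.7 and 33.7 CPM in LTP slices, which also overlapped. Grin2d (GluN2D), the scarcest member, had 2.25, 2.44 and 2.51 CPM in 3 hr controls and 3.39, 2.66 and 4.17 CPM in 3 hr LTP libraries. These did not overlap, but with a log2 fold change of 0.51 and an SE of 0.174 it missed the call (adjusted p = 0.144, edgeR quasi-likelihood test, Benjamini-Hochberg). Grin2d was called with the replicate block, with offsets for GC content and length, with both, and without LTP replicate 2. Grin3a, whose product lowers the calcium permeability of the receptor, had a log2 fold change of 0.10 (SE 0.0833) at 3 hr.

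**Figure D2:**
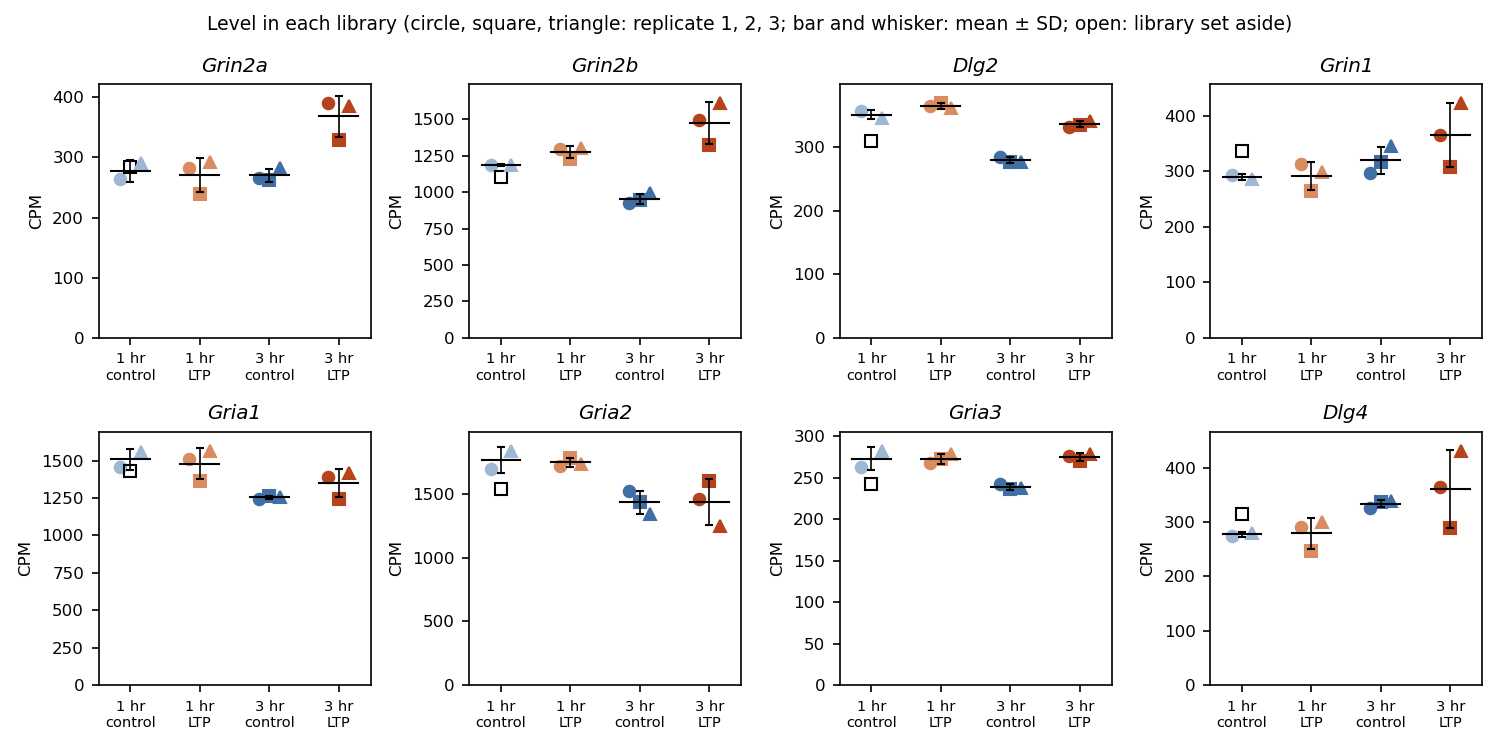
CPM (y axes, starting at 0) of 8 genes in each library of the 4 groups (x axis), with bars and whiskers for the mean and SD of the fitted libraries and an open square for 1 hr control replicate 2, which was set aside. The LTP libraries of Grin2b lie above the controls at both times, those of Grin2a only at 3 hr, and at 3 hr Grin2b reaches 1611 CPM.

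The makeup of the GluN2 pool was described per length, as each subunit's share of the CPM per kb of annotated exon, summed over Grin2a to Grin2d. Grin2b held 61.2% ± 0.883 (SD, n = 3) of this sum in 3 hr controls and 66.8% ± 0.922 (SD, n = 3) in 3 hr LTP slices. By library the Grin2b shares were 61.1%, 62.1% and 60.4% in controls and 65.8%, 67.4% and 67.4% after LTP, without overlap. The share of Grin2c was 14.2% ± 0.872 (SD, n = 3) in controls and 9.50% ± 0.496 (SD, n = 3) after LTP, although its own level differed little. The share of Grin2a was 24.0% ± 0.302 (SD, n = 3) and 23.1% ± 0.702 (SD, n = 3). At 1 hr Grin2b held 69.2%, 64.5% and 67.5% of the sum in the control libraries and Grin2c 8.88%, 12.1% and 9.25%, and the 3 hr controls had the lowest Grin2b and the highest Grin2c shares of the 4 groups. The ratio of Grin2b to Grin2a per length was 2.55 ± 0.0545 (SD, n = 3) in 3 hr controls and 2.90 ± 0.122 (SD, n = 3) in 3 hr LTP slices. It was 3.00 ± 0.221 (SD, n = 3) in 1 hr controls and 3.41 ± 0.254 (SD, n = 3) in 1 hr LTP slices, so that both 1 hr means were above the 3 hr LTP mean. Per kb of the longest coding transcript instead, the mean share of Grin2b was 58.6% in 3 hr controls and 64.0% in 3 hr LTP slices. Shares and ratios were not tested.

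**Figure D3:**
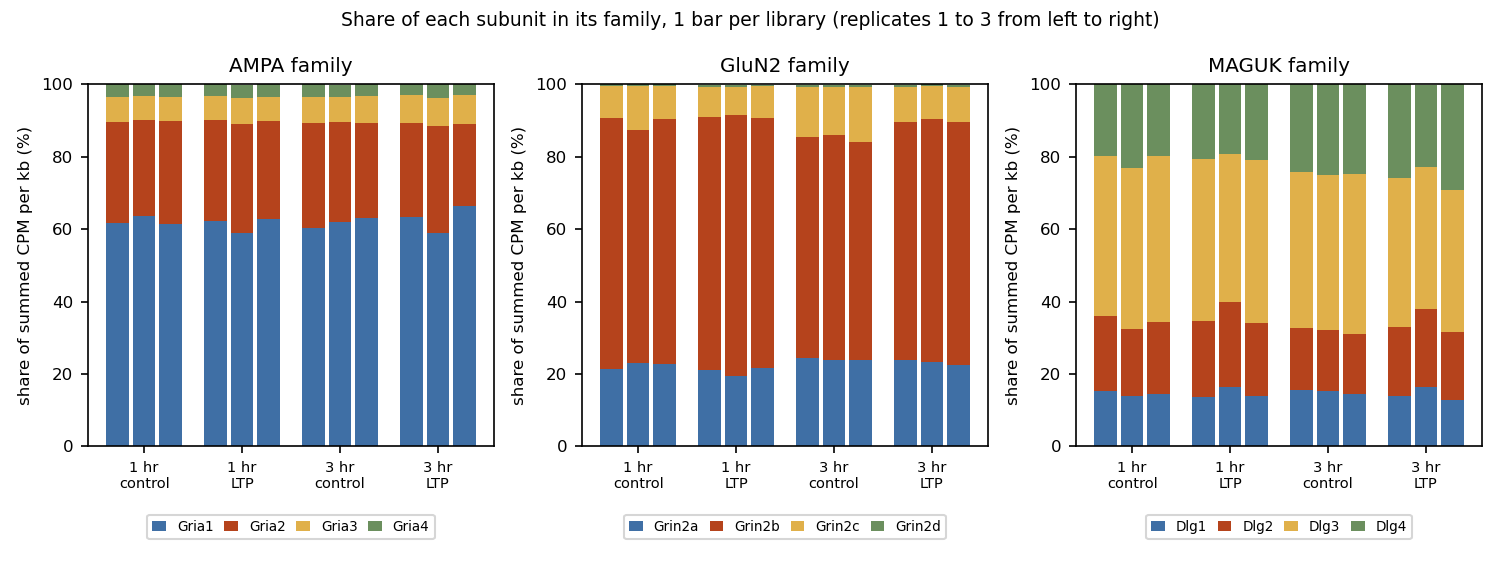
Share in percent (y axis) of each subunit in the summed CPM per kb of the AMPA, GluN2 and MAGUK families, with 1 bar for each library, grouped by condition (x axis). The Grin2b segment covers 61.2% of the GluN2 sum in 3 hr controls and 66.8% in 3 hr LTP libraries and 67.1% in 1 hr controls, and the Gria1 and Gria2 shares are most spread among the 3 hr LTP libraries.

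None of the 4 AMPA receptor subunits was called at either time point after LTP. Gria1, which encodes the GluA1 subunit, had 1460.3, 1431 and 1559 CPM in 1 hr controls and 1508, 1364 and 1567 CPM in 1 hr LTP libraries. Its 3 hr values were 1245, 1265 and 1256 CPM in controls and 1394, 1244 and 1417 CPM after LTP, where replicate 2 stood at the level of the controls. The log2 fold changes were -0.02 (SE 0.0687) at 1 hr and 0.12 (SE 0.0705) at 3 hr. Gria2 encodes GluA2, the subunit that makes AMPA receptors impermeable to calcium once edited. It had 1696, 1543 and 1844 CPM in 1 hr controls, 1725, 1789 and 1736 CPM in 1 hr LTP slices, 1524, 1441 and 1343 CPM in 3 hr controls and 1466, 1601 and 1248 CPM in 3 hr LTP slices. The groups of each time point overlapped, and the log2 fold changes were -0.01 (SE 0.0619) and 0.02 (SE 0.0970).

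Gria3 (GluA3) came closest to a call, with 242, 236 and 237 CPM in 3 hr controls and 276, 269.6 and 279 CPM in LTP slices. The groups did not overlap and the adjusted p passed, but the 1.16-fold difference was under the fold minimum (log2 fold change 0.22, SE 0.0517, adjusted p = 0.0574, edgeR quasi-likelihood test, Benjamini-Hochberg). Gria4 (GluA4) had 86.9, 74.5 and 89.7 CPM in 1 hr controls, 79.7, 89.2 and 87.5 CPM in 1 hr LTP slices, 76.7, 72.2 and 66.6 CPM in 3 hr controls and 67.4, 79.5 and 65.9 CPM in 3 hr LTP slices, with overlap at both times. Gria1 held 61.9% ± 1.37 (SD, n = 3) of the AMPA sum per length in 3 hr controls and 62.9% ± 3.68 (SD, n = 3) after LTP. For Gria2 the shares were 27.5% ± 1.24 (SD, n = 3) and 26.1% ± 3.41 (SD, n = 3). The 3 hr LTP libraries were more spread in these shares than the controls, with Gria1 shares of 63.4%, 59.0% and 66.3% in replicates 1, 2 and 3. Per kb of the longest coding transcript instead, the mean Gria1 share was 53.4% in 3 hr controls and 54.4% in 3 hr LTP slices. That of Gria2 was then 32.6% and 30.9%.

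Of the 5 kainate receptor subunits none was called after LTP in the fit of each time point, and all 5 had a log2 fold change above 0 at 3 hr, from 0.01 (Grik1) to 0.31 (Grik5). Grik5 encodes the high-affinity GluK5 subunit, and had 98.6, 95.9 and 111 CPM in 3 hr controls and 129, 103 and 144 CPM after LTP. LTP replicate 2 lay among the controls, and the other two libraries lay above them (SE 0.118, adjusted p = 0.181, edgeR quasi-likelihood test, Benjamini-Hochberg). It was called in the model of 4 groups (adjusted p = 0.0961, edgeR), with the replicate block, with offsets for GC content and length, with both, and without LTP replicate 2. Grik2 (GluK2) had 109.5, 99.5 and 105 CPM in 3 hr controls and 126, 124 and 113 CPM after LTP, which did not overlap. Its log2 fold change was 0.22 (SE 0.0678) and its adjusted p 0.110 (edgeR, Benjamini-Hochberg), just outside the threshold. Without LTP replicate 3 it was called (log2 fold change 0.27, adjusted p = 0.0519, edgeR). Over the fits that left out 1 library its log2 fold change lay between 0.19 and 0.27. With offsets for GC content and length it was 0.10 and was not called. At 1 hr Grik2 had 129.6, 112 and 122 CPM in controls and 122, 123 and 114 CPM in LTP slices. Grik1 (GluK1) was low throughout, with 13.8, 16.0 and 13.3 CPM in 3 hr controls, 14.3, 14.9 and 13.7 CPM in 3 hr LTP slices, 17.1, 16.8 and 19.7 CPM in 1 hr controls and 16.6, 19.2 and 17.4 CPM in 1 hr LTP slices. Those values overlapped between LTP and control at each time. Grik3 and Grik4 had 3 hr log2 fold changes of 0.20 (SE 0.119) and 0.12 (SE 0.110). For the delta subunit Grid1, a synaptic adhesion protein more than an ion channel, the 3 hr log2 fold change was 0.10 (SE 0.0562).

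None of the 6 metabotropic receptors was called after LTP. Grm5, a receptor coupled to phospholipase C, had 710.3, 672 and 758 CPM in 1 hr controls and 717, 753 and 732 CPM in 1 hr LTP slices. At 3 hr it had 639, 637 and 609.9 CPM in controls and 622, 634 and 571 CPM after LTP, and groups overlapped at both times. The log2 fold changes of Grm5 were 0.01 (SE 0.0639) and -0.03 (SE 0.0645). Grm7, which encodes a presynaptic receptor that restrains transmitter release, had 111, 105 and 109 CPM in 3 hr controls and 122, 119 and 125 CPM after LTP. These groups did not overlap, but its difference was small (log2 fold change 0.18, SE 0.0554) and its adjusted p was 0.110 (edgeR, Benjamini-Hochberg). Grm2, Grm3, Grm4 and Grm8 had 3 hr log2 fold changes of 0.14, 0.01, 0.24 and 0.21, with SEs of 0.240, 0.0579, 0.157 and 0.110. Grm3, present in astrocytes as well as neurons, was the most precisely measured of those.

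The AMPA receptor auxiliary proteins were not called after LTP at either time point. Cacng8, the TARP most characteristic of the hippocampus, had 97.5, 101 and 115 CPM in 3 hr controls and 118, 90.9 and 126 CPM after LTP. LTP replicate 2 was again the lowest of the 6, and the log2 fold change was 0.11 (SE 0.120). With offsets for GC content and length it was 0.29 and was called (adjusted p = 0.0181, edgeR quasi-likelihood test, Benjamini-Hochberg). Without offsets, over the fits that left out 1 library, it ran from 0.0038 to 0.24 and was never called. At 1 hr Cacng8 had 72.2, 90.8 and 81.0 CPM in controls and 83.0, 71.8 and 96.2 CPM in LTP slices. The other TARPs, Cacng2 (stargazin) and Cacng3, had 3 hr log2 fold changes of 0.04 (SE 0.159) and 0.18 (SE 0.154). Cnih2, a cornichon that slows the closing of AMPA receptors, had 203, 228 and 216 CPM in 1 hr controls, 207, 169.7 and 243 CPM in 1 hr LTP slices, 239, 252 and 261 CPM in 3 hr controls and 229, 200.1 and 271 CPM in 3 hr LTP slices. These overlapped at each time. Its relative Cnih3 was the only member with a log2 fold change below -0.2 at both times, -0.21 (SE 0.0950) at 1 hr and -0.21 (SE 0.0777) at 3 hr. At 3 hr Cnih3 had 67.1, 67.5 and 69.5 CPM in controls and 60.2, 62.7 and 52.0 CPM after LTP, which did not overlap, but its adjusted p was 0.175 (edgeR, Benjamini-Hochberg). Neto1, which binds kainate and NMDA receptors, had 67.7, 65.7 and 65.0 CPM in 3 hr controls and 64.5, 69.3 and 85.8 CPM in 3 hr LTP libraries, which overlapped. Its 1 hr values were 95.1, 90.5 and 85.5 CPM in controls and 85.2, 76.7 and 93.5 CPM after LTP. Neto2 had a 3 hr log2 fold change of 0.02 (SE 0.108).

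Of the MAGUK scaffolds only Dlg2, which encodes PSD-93 (chr7:90476672-92449247, plus strand), was called, and only at 3 hr. It had 285, 277 and 276 CPM in 3 hr controls and 331, 335 and 341 CPM in 3 hr LTP libraries. Spread within both groups was small, and the groups did not overlap (log2 fold change 0.28, SE 0.0525, adjusted p = 0.0270, edgeR quasi-likelihood test, Benjamini-Hochberg). At 1 hr the values were 356, 309.6 and 346 CPM in controls and 364, 369 and 361 CPM after LTP. The 3 hr LTP libraries therefore stood below the 1 hr libraries that were fitted, and between them and the 3 hr controls. The call was lost without control replicate 1, 2 or 3 or LTP replicate 1 or 3 at 3 hr, although the log2 fold change stayed between 0.26 and 0.29 when 1 library was left out. It was also lost with offsets for GC content and length, where the log2 fold change was 0.13 (adjusted p = 0.139, edgeR).

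Dlg4, which encodes PSD-95, the most studied of these scaffolds, had 326, 338 and 338 CPM in 3 hr controls and 364, 288 and 432 CPM after LTP. The controls were tight and the LTP libraries lay on both sides of them, with replicate 2 lowest and replicate 3 highest (log2 fold change 0.13, SE 0.125). At 1 hr Dlg4 had 275, 315 and 281 CPM in controls and 291, 246 and 301 CPM in LTP slices. Dlg1 and Dlg3, which encode SAP97 and SAP102, had 3 hr log2 fold changes of -0.04 (SE 0.0576) and -0.08 (SE 0.0727). Within the MAGUK sum per length, Dlg2 held 17.2%, 16.6% and 16.5% in the 3 hr control libraries and 19.1%, 21.5% and 18.8% after LTP, without overlap. Dlg3 held 43.5% ± 0.696 (SD, n = 3) and 39.8% ± 1.21 (SD, n = 3). The share of Dlg4 by library was 25.9%, 22.8% and 29.3% in the 3 hr LTP group.

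Whether the LTP effect differed between 3 hr and 1 hr was tested as an interaction in 1 model of the 4 groups. None of the 33 was called at an adjusted p under 0.1, against 0.0592% of all genes (edgeR quasi-likelihood test, Benjamini-Hochberg), and limma-voom also called 0. At an unadjusted p under 0.05 there were 6 members, against 6.59% of all genes: Grin2b, Grin2a, Grik2, Dlg2, Gria3 and Grm7, all with the larger effect at 3 hr. For Grin2b the effect at 3 hr exceeded that at 1 hr by 0.54 on the log2 scale (SE 0.109, adjusted p = 0.168, edgeR). For Grin2a it did so by 0.49 (SE 0.130, adjusted p = 0.387, edgeR). DESeq2 called 1 member, Grin2b (adjusted p = 0.00275), and 0.312% of all genes. Grin2b and Grin2a were both called without 3 hr LTP replicate 2, and when every gene with at least 1 count entered the fit, where 0.363% and 0.359% of all genes were called.

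The 3 hr and 1 hr controls were compared to see how these transcripts differed without LTP induction. Of the 33, 10 were called, 2 higher and 8 lower at 3 hr. Over all genes tested 32.8% were called, 16.1% higher and 16.8% lower. Of the AMPA subunits, Gria1, Gria2 and Gria4 were called lower, with log2 fold changes of -0.29 (SE 0.0785), -0.33 (SE 0.0917) and -0.33 (SE 0.0874). Gria3, at -0.22 (SE 0.0603), passed the adjusted p but was under the fold minimum. No AMPA subunit was called with all libraries in the fit or without 1 hr control replicate 3, where the log2 fold changes of Gria1 were -0.24 and -0.21 and those of Gria2 -0.24 and -0.23. With offsets for GC content and length, described below, that of Gria2 was -0.09, and neither Gria2 nor Gria4 was called. For Gria1 the means were 1509.8 ± 70.0 CPM (SD, n = 2) at 1 hr and 1256 ± 10.0 CPM (SD, n = 3) at 3 hr, and for Gria2 1770.0 ± 105 CPM (SD, n = 2) and 1436 ± 90.2 CPM (SD, n = 3). Grik1 and Grik2 were also called lower, with log2 fold changes of -0.39 (SE 0.104) and -0.29 (SE 0.0708). The Grik2 call was also lost with total-count scaling, with at least 10 counts required in every library, with all libraries, and without 1 hr control replicate 1 or 3 hr control replicate 2, and that of Grik1 without 1 hr control replicate 3. Over the fits that left out 1 library the log2 fold change of Grik2 lay between -0.30 and -0.21 and that of Gria4, whose call was also lost without 3 hr control replicate 3, between -0.35 and -0.26. The Gria1 call was lost with total-count scaling and the filter at 10 counts as well.

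The other genes lower in 3 hr controls were Grin2b (log2 fold change -0.34, SE 0.0807, adjusted p = 0.00626, edgeR quasi-likelihood test, Benjamini-Hochberg), Dlg2 (log2 fold change -0.36, SE 0.0573, adjusted p = 0.000596, edgeR) and Neto1 (log2 fold change -0.48, SE 0.109, adjusted p = 0.00517, edgeR). Grin2c and Cacng8 were higher, with log2 fold changes of 0.47 (SE 0.130) and 0.42 (SE 0.139), and the Cacng8 call was lost without 1 hr control replicate 1, at 0.38. Grin2c had means of 31.9 ± 1.61 CPM (SD, n = 2) at 1 hr and 45.2 ± 4.79 CPM (SD, n = 3) at 3 hr. The 1 hr control library that was set aside had 41.8 CPM of Grin2c, 90.8 CPM of Cacng8 and 309.6 CPM of Dlg2, each between the means of the 1 hr and 3 hr controls. With that library in the fit, 6 members and 27.4% of all genes were called, and without 1 hr control replicate 3 also 6, with 21.9% of all genes. Beside these genes, general neuronal markers summed to 6772 to 7631 CPM in 1 hr controls and 5812 to 6026 CPM in 3 hr controls, with 3 of 5 called lower. Oligodendrocyte markers (Mbp, Mog, Mag and Mobp) ran from 3731 to 4866 CPM in 1 hr controls and from 5241 to 6245 CPM in 3 hr controls, with 2 of 4 called higher. Of 4 CA3 markers 3 were called lower and 1 higher, of 4 CA1 markers 2 higher and 1 lower, and of 3 markers of oligodendrocyte precursors 2 higher. Microglial markers (Cx3cr1, P2ry12, Tmem119 and Csf1r) fell from 139 to 152 CPM to 96.7 to 109 CPM, with 3 of 4 called lower. Of 4 endothelial markers 2 were called lower, and of the 4 excitatory neuron markers 1, Neurod6 (log2 fold change -1.10, adjusted p = 6.9e-05, edgeR). The part of cell makeup in the members' difference was not tested.

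The difference between the controls followed the base composition of the transcripts. Across the 33 members, the log2 fold change rose with GC content (r = 0.79, rho = 0.71, n = 33), and it fell with the log2 length of the gene (r = -0.73). These are descriptions over genes that share the same libraries. All genes showed a like pattern: the median log2 fold change was -0.27 for transcripts under 40% GC and 0.44 for those of 60% and more. Gria2, at 36.8% GC, and Neto1, at 39.6%, were among the lowest in GC, and Grin2c (62.1%) and Cacng8 (65.1%) among the highest. When each library was given offsets for GC content and length, 7 members were called, all lower at 3 hr: Gria1, Grik1, Grik5, Grin1, Cacng2, Cacng3 and Cacng8. Over all genes this fit called 26.1%, 9.56% higher and 16.6% lower. Of the members called in either fit, 4 changed direction. Cacng8 turned to -0.32, Grik5 from 0.25 to -0.29, Grin1 from 0.11 to -0.33 and Grin2c to -0.0914. Gria1 (-0.31 with the offset) and Grik1 (-0.38) were called lower with and without the offsets. The calls of Grin2b, Dlg2, Neto1 and Grik2 were lost, at log2 fold changes of -0.21, -0.25, -0.31 and -0.08. Across the members r with GC content was -0.40 with the offsets.

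In the LTP contrast at 3 hr, r over the 33 members was 0.05 with GC content and 0.51 (rho = 0.42) with log2 exonic length, and the members called, Grin2b, Grin2a and Dlg2, have the longest exonic sequence of the 33 (24842, 17933 and 16280 bases). With the offsets r was 0.44 with GC content and 0.08 with exonic length. The log2 fold changes of Grin2b and Grin2a shrank to 0.41 and 0.29, and both were still called (adjusted p = 0.0200 and 0.0458, edgeR quasi-likelihood test, Benjamini-Hochberg). The part of transcript length in these values was not tested further.

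**Figure D4:**
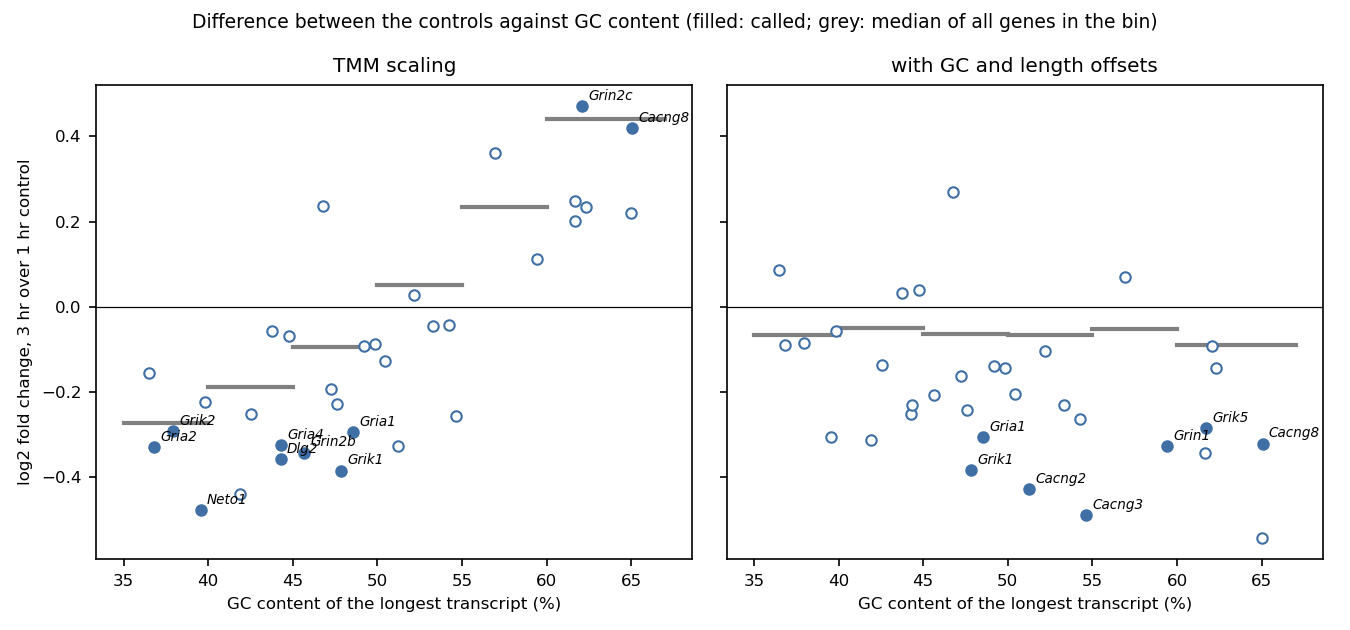
The log2 fold change between the 3 hr and 1 hr controls (y axis) against the GC content of each member's longest transcript in percent (x axis), with TMM scaling (left) and with offsets for GC content and length (right). Filled points are called and grey bars give the median of all genes in each GC bin, which climbs from -0.27 to 0.44 on the left and is nearly level on the right.

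The promoter sequences of the members were searched for the motifs of transcription factors known to act after neuronal activity. RefSeq windows of GRCm38.p6, from 250 bases before to 50 bases after a start, were at hand for 23 of the 33 members, in 35 windows. Grin2b, Grin2a and Gria1 were not among them, so of the members called after LTP only Dlg2 was searched. The full cAMP response element TGACGTCA, the binding site of CREB, was in 0 of the 35 windows and in 1.79% of all 32851 windows. Its shorter form TGACG was in 5 of the 35, for Dlg3, Dlg4, Grik2, Grin1 and Grm8, and in 20.8% of all windows. The AP-1 motif TGANTCA was in 1 (Grm8) against 7.81% of all, and the EGR motif GCGNGGGCG was in 3 (Gria4, Grin1 and Grm3) against 5.55%. Both strands were searched, and each full element also counts as its shorter form. A match describes letters only, and its absence says that they are not in this window.

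The 100 bases before the start are shown for the obligatory NMDA receptor subunit, for a pair of AMPA subunits called lower and for Grin2c, called higher, in 3 hr controls with TMM scaling, calls that the offsets for GC content and length removed. They overlap no annotated exon of GENCODE M21. Capitals mark motif matches, which are 2 copies of the short CRE form on the reverse strand for Grin1, starting 31 and 5 bases before the start, and 1 EGR match for Gria4, starting 20 bases before it. The GC content of the 4 stretches was 71.0%, 77.0%, 63.0% and 81.0%, in this order.
Grin1, chr2:25319188-25319287, minus strand: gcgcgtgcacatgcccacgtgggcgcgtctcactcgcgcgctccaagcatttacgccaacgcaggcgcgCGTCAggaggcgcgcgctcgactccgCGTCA
Gria2, chr3:80802836-80802935, minus strand: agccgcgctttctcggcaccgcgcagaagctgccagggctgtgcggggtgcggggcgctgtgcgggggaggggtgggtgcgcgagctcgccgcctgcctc
Gria4, chr9:4796235-4796334, minus strand: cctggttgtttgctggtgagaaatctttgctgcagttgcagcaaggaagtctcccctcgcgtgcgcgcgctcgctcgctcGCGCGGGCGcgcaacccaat
Grin2c, chr11:115267244-115267343, minus strand: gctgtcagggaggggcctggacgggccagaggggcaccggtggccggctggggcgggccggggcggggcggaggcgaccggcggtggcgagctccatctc

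A list of 37 partner genes of the glutamate synapse was read beside the members, of which 36 were tested. It covers the loading, uptake and synthesis of the transmitter, the trafficking and assembly of AMPA receptors, and partners of NMDA receptors and scaffolds. None was called at 1 hr after LTP (edgeR quasi-likelihood test, Benjamini-Hochberg), and 1, Shisa7, had an unadjusted p under 0.05. At 3 hr, 2 of 36 were called, both higher in LTP slices, against 5.07% of all genes called higher, so that the count was near that background. Shisa6 and Shisa7 encode transmembrane proteins that bind AMPA receptors. Shisa6 had 59.6 ± 0.480 CPM (SD, n = 3) without and 98.3 ± 18.9 CPM (SD, n = 3) with LTP induction (log2 fold change 0.73, SE 0.118, adjusted p = 0.0158, edgeR). Shisa7 rose as well (log2 fold change 0.54, SE 0.122, adjusted p = 0.0494, edgeR). The median log2 fold change of the 36 at 3 hr was -0.0018. None of the 10 genes of transmitter loading, uptake and synthesis was called at 3 hr, and none of these had an unadjusted p under 0.05.

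Between the controls, 9 of the 36 partners were called, 1 higher and 8 lower at 3 hr, against 32.8% of all genes. Kif17, a kinesin that carries NMDA receptor cargo along dendrites, was the higher one (log2 fold change 0.33, SE 0.131, adjusted p = 0.0745, edgeR quasi-likelihood test, Benjamini-Hochberg). Among the lower ones were the glial glutamate transporter Slc1a3 (log2 fold change -0.29, SE 0.0867, adjusted p = 0.0231, edgeR) and the vesicular transporter Slc17a8. The others were Frrs1l, needed for AMPA receptor assembly (log2 fold change -0.39, SE 0.0874, adjusted p = 0.00472, edgeR), Shisa6, Shisa9, the scaffold partners Lin7a and Lin7c, and Srr, which makes the co-agonist D-serine. In the interaction none of the 36 was called (edgeR quasi-likelihood test), and 2, Shisa6 and Shisa7, had an unadjusted p under 0.05, against 6.59% of all genes.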

How the data were processed

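Per the labels, total RNA depleted of ribosomal RNA was sequenced with a stranded kit. The deposited tables hold the authors' raw counts per gene, not normalized, aligned to mm10 with STAR; the submitters' processing notes name DESeq2. Whether counting used strand is not stated. The study reports that its own expression analysis kept only reads in coding regions. Whether the deposited counts are limited in this way was not settled here. Levels per kb, shares and length offsets use all annotated exons, untranslated ends included, and would be affected if the counts are so limited. Of 41091 Ensembl IDs, 40217 matched GENCODE M21 (GRCm38), the source of symbols, positions, lengths and GC content. Each table was fitted whole in edgeR 4.0.16 (R 4.3.3), quasi-likelihood F test, after filterByExpr and TMM, with Benjamini-Hochberg adjustment, on 5 libraries at 1 hr, 6 at 3 hr and 11 in the model of 4 groups. Thresholds were those of the study's methods.

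The members, the partner and marker lists and the tests were chosen with earlier results of these data known. By rule, values per library are given for each member called in any test and for Gria1, Gria2, Grin1, Grin2a, Grin2b, Grm5, Cacng8, Cnih2 and Dlg4. Others shown by library (Gria3, Grin2d, Grik5, Grm7 and Cnih3) were added after their values were seen. A few genes of the partner and marker lists are not reported here and do not enter the counts and sums.

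The labels pair LTP and control libraries by animal within a time point. The correlation of their deviations from the group means, over 18240 genes, was -0.0172, -0.119 and 0.0743 in the 1 hr pairs 1, 2 and 3, and 0.0253, -0.0459 and 0.178 in the 3 hr pairs. Alternatives were the replicate block, DESeq2 1.42.0, limma-voom (limma 3.58.1), other scalings and filters, spline offsets (5 degrees of freedom) for GC content and exonic length, all libraries, and leaving out each library. Promoter sequences came from RefSeq (GRCm38.p6).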

Additional observations from a re-analysis of the deposited data

How the results depend on the processing

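At 3 hr the offsets for GC content and length gave 5 called members (Grin2d, Grik5, Grin2b, Cacng8 and Grin2a), and the replicate block gave 5 without these offsets and 5 with them, beside 7.60%, 9.49% and 8.36% of all genes. Paired by animal, 0 members were called at 1 hr and 0 in the interaction. Leaving out 1 library in turn gave 0 to 1 called members at 1 hr, 1 to 9 at 3 hr, 6 to 12 between the controls and 0 to 2 in the interaction, while the share of all genes called ran over 0.373% to 1.97%, 1.28% to 12.2%, 21.9% to 34.8% and 0.00519% to 0.363%. All libraries together gave 6 between the controls. In the interaction DESeq2 gave 1 and the filter at 1 count gave 2. With the offsets the control difference turned to -0.29 for Grik5, -0.33 for Grin1, -0.0914 for Grin2c and -0.32 for Cacng8. Every other scaling, tool, filter and the model of 4 groups kept every count of called members within 1.5 times the main one. Over its alternatives the 3 hr change of Grin2b lay between 0.41 and 0.72, that of Grin2a between 0.29 and 0.54 and that of Dlg2 between 0.13 and 0.29, in each case lowest where these offsets and the block were both used. The scarce members Grin2d, Grm4 and Grm8 were not called after LTP in the fit of either time point, though each was called in some alternative. Each fit had only 2 or 3 libraries a group, and the size of change that could be resolved was not tested. Fits that leave 1 control at 1 hr assume that it varies like the other groups. Causes were not tested.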
